A study of Mus musculus with 10 samples.

Results

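Mouse cells that had received the ligand Gdf11 for their last 24 h and were collected on day 7 (group D7G) were compared with the cells of day 6, the day on which Gdf11 was added (group D6). The comparison uses 4 of the 10 libraries of the series, 2 per group, chosen by their labels, and it measures the net change of treated cells, in which 1 more day of culture and the ligand act together. The 2 libraries of untreated day 7 (group D7) are set beside them to tell which genes kept their day 6 level in treated cells, and which changed as much in cells without Gdf11. All groups came from the wild-type C57BL/6 embryonic stem cell line ES-Bruce4, so every group rests on 1 line. The line had been grown on mouse embryo fibroblast feeders, which were removed once before differentiation. All dishes received basic Fgf (10 ng/ml) from day 0 and CHIR99021 (5 µM), which turns on Wnt signalling by blocking Gsk3, on day 2, and were split on day 3. D7G dishes were given human Gdf11 (50 ng/ml) on day 6. The N2B27 medium carried B27 supplement with or without vitamin A, the source of retinoic acid, and the labels do not say which for a group. RNA was taken in bulk from whole dishes, so fewer cells of a type and less RNA per cell cannot be told apart. Whether the 2 replicates of a group were grown apart is not in the labels, so p values reflect no more than the spread of these libraries, possibly a technical one.

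The culture is meant to yield neuromesodermal progenitors, cells of the tail bud that keep making spinal cord and trunk mesoderm while the body axis extends. These cells hold the mesoderm factor T (Brachyury) together with the neural factor Sox2 under Wnt and Fgf signals, with Cdx and Nkx1-2 transcription factors. Gdf11, a Tgf-β family protein that cells secrete, signals through Activin receptors and Smad2 and Smad3. In the embryo it times the change from trunk to tail, when Hox genes of the posterior paralogue groups come on and hindlimb and cloacal tissues are laid down.

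Libraries of the series held 31078950 to 33418015 gene counts, and mitochondrial genes took 1.86% to 2.48% of them. Values are CPM, counts scaled to the effective size of each library, replicate 1 before replicate 2, and changes are log2 fold changes ± standard error (SE) from 1 edgeR quasi-likelihood fit of all 10 libraries. The threshold for a call was an adjusted p of 0.05, over all 18818 tested genes. Between D6 and D7G, 9939 genes were called, 52.8% of those tested: 5756 were higher in D7G (30.6%) and 4183 lower (22.2%). Large changes ran mostly upwards, since 1572 genes were at least 2-fold higher (8.35%) and 232 at least 2-fold lower (1.23%). Over the same day without Gdf11, D7 against D6, 6782 genes were called (36%), with 20.5% of tested genes higher and 15.6% lower. Of these, 494 were at least 2-fold higher (2.63%) and 133 at least 2-fold lower (0.707%). D7G against D7 called 7661 genes (40.7%), with 22.5% of tested genes higher and 18.2% lower, 799 of them at least 2-fold higher (4.25%) and 180 at least 2-fold lower (0.957%). Counts of list members below are to be read beside these shares. The lists were chosen with earlier results of these data known. The D6 and D7G libraries did not overlap in 74.4% of tested genes. These 3 comparisons share libraries, so the counts below describe how each gene's values lie and are not tests of each other.

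A gene was said to have held a level where the 95% interval of its log2 fold change lay inside ±0.32, and to have moved where it was called and changed at least 2-fold. Of the tested genes, 27% held between D6 and D7G, 36.8% between D6 and D7 and 35.1% between D7 and D7G, and 3729 genes held in all 3 comparisons. Some 1799 genes (9.56% of those tested) held the D6 level in D7G while they were called in D7 against D6, as were 36% of all tested genes. Those D7 calls were of any size, so some could lie inside the held range too. Another 3804 genes (20.2% of those tested) were called in D7G against D6, at any size, and held between D7 and D7G. The held range bounds a difference and does not make levels equal, so a held gene can still be called. Of the 3804 genes, 1535 were above D6 and 2269 below it. Under the stricter rule of a 2-fold move, 2 genes moved in untreated cells and held the D6 level with Gdf11, and 14 moved in treated cells and held between D7 and D7G. A further 50 moved in treated cells and held between D6 and D7, and 3 moved in opposite directions in the 2 kinds of dishes. A gene that neither moved nor held belongs to none of these sets, and 5559 genes were neither called nor held in D7G against D6. Most of the 1804 genes that moved in D7G against D6 lie outside these sets. Of the 1804, 898 were called in the same direction in D7 against D6, and 599 of those went further in D7G than in D7. Another 887 were not called in D7 against D6, and 19 were called there in the opposite direction.

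**Figure D1:**
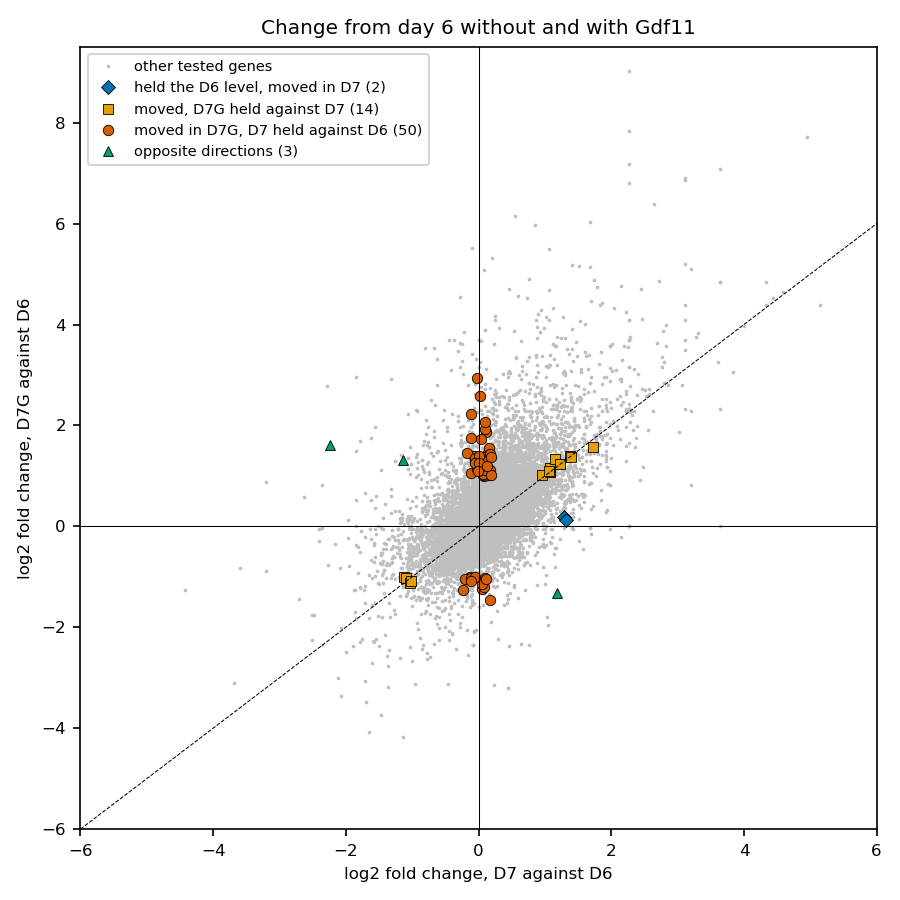
Log2 fold change of each of the 18818 tested genes in D7G against D6 (vertical axis) and in D7 against D6 (horizontal axis); both axes use the same D6 libraries, and the dashed line marks equal change. Coloured symbols are the 2 genes that moved in D7 and held the D6 level in D7G, and the 14 that moved in D7G and held between D7 and D7G. They also mark the 50 that moved in D7G and held between D6 and D7 and the 3 that moved in opposite directions.

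By the rule of a 2-fold move, the 2 genes that moved in untreated dishes and held the day 6 level with Gdf11 were Dlk1 and Acss2. Dlk1 encodes an imprinted membrane protein related to the Notch ligands (chromosome 12, 109452823 to 109463336, mm10). It stood at 29.5 and 24.1 CPM in D6, 63.6 and 70.5 CPM in D7 and 29.5 and 28.9 CPM in D7G. Both untreated day 7 libraries were thus more than 2-fold above all other libraries, and D6 and D7G overlapped. The log2 fold change was 1.32 ± 0.074 in D7 against D6 (adjusted p = 1.42e-10) and 0.12 ± 0.079 in D7G against D6 (95% interval -0.043 to 0.29). Acss2, which makes acetyl-CoA from acetate (chromosome 2, 155517948 to 155585724), had 34.3 and 32.2 CPM in D6, 77.6 and 84.3 CPM in D7 and 38.9 and 36.4 CPM in D7G. Its D7G libraries were slightly above D6, by 0.18 ± 0.063 (adjusted p = 0.0211), against 1.28 ± 0.059 in D7. That call was lost by DESeq2 and when any single library of the 3 groups other than D6 replicate 1 was left out. Without D6 replicate 1 the set held 1 gene, and it was neither of these, and Dlk1 was called higher in D7G, by 0.28. With scaling to library totals it was empty, and when genes with a 1.5-fold move were admitted it grew to 29.

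That wider set included Pax7, Has2, Jag2, Dact1, Nnat, Parvb and Fez1, named after their values were seen. Has2, the hyaluronan synthase of mesoderm, had 39.2 and 36.8 CPM in D6, 20.4 and 17.8 CPM in D7 and 36.7 and 45.7 CPM in D7G. It fell by 0.99 on the log2 scale without Gdf11 and held with it (0.12). Nnat, an imprinted membrane protein gene, and Dact1, a Dishevelled-binding Wnt regulator, likewise fell without Gdf11 (-0.66 and -0.76) and held with it (0.15 and -0.15). Jag2, a Notch ligand, rose without Gdf11 (0.61) and held with it (0.013).

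Among the 14 genes that moved in D7G and held between D7 and D7G, 10 rose from D6 and 4 fell. Jun, a subunit of the AP-1 transcription factor (chromosome 4, 95049034 to 95052222), rose from 95.2 and 111 CPM in D6 to 343 and 268 CPM in D7G, and D7 had 331 and 352 CPM. All day 7 libraries were more than 2-fold above both D6 libraries, and the 2 groups of day 7 overlapped. Its change was 1.57 ± 0.079 in D7G against D6 (adjusted p = 2.25e-12) and -0.16 ± 0.074 between D7 and D7G (95% interval -0.32 to -0.0048). Ckb, the brain form of creatine kinase, went from 49.2 and 46.6 CPM to 112 and 113 CPM, with 105 and 112 CPM in D7, a rise of 1.23 ± 0.046. St8sia1, the GD3 ganglioside synthase, rose by 1.23 ± 0.13. Srgap3, which acts downstream of Slit and Robo, rose by 1.34 ± 0.059 with Gdf11 and by 1.15 ± 0.060 without, at 33.6 and 33.3 CPM in D6, 71.8 and 76.1 CPM in D7 and 84.6 and 85.1 CPM in D7G. It was the 1 gene of the 14 called between D7 and D7G, where its groups did not overlap (0.20 ± 0.055, adjusted p = 0.00649). The other rising members were Gm12892, Rhbdl3, Dennd3, Tmem30b, Rgs3 and Ltbp3, the last of which encodes a latent Tgf-β binding protein. Their log2 fold changes in D7G against D6 lay between 1.02 (Ltbp3) and 1.39 (Gm12892).

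Cdx1, a caudal homeobox factor of the tail bud, was among the 4 that fell: 72.7 and 85.4 CPM in D6, 37.4 and 35.1 CPM in D7 and 38.6 and 39.9 CPM in D7G. The change from D6 was -1.01 ± 0.067 with Gdf11 and -1.12 ± 0.067 without, and the difference between D7 and D7G was 0.11 ± 0.071 (95% interval -0.035 to 0.26). Sema3e, a secreted guidance protein, changed by -1.08, Rnf225, a RING finger gene, by -1.11, and Gt(ROSA)26Sor, the noncoding transcript of the Rosa26 locus, by -1.01 in D7G against D6. The corresponding values in D7 against D6 were -1.02, -1.04 and -1.09. Without D7 replicate 1 this set of 14 shrank to 7 genes, of which 4 were in the original set, and without D7 replicate 2 to 8, again with 4 shared. It held 6 genes by DESeq2.

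Of the 50 genes that moved with Gdf11 while D7 held the D6 level, 38 rose and 12 fell; 7 of the 50 were called in D7 against D6 too, inside the held range. Fst encodes follistatin, the secreted antagonist that binds Activin and Gdf11 (chromosome 13, 114452262 to 114458949). It was at 16.6 and 14.0 CPM in D6, 15.1 and 15.0 CPM in D7 and 112 and 122 CPM in D7G. The 4 untreated libraries lay together and the treated ones far above them, a rise of 2.93 ± 0.073 (adjusted p = 6.99e-17) against -0.024 ± 0.089 in D7 (95% interval -0.21 to 0.16). Flrt2, a leucine-rich repeat protein of the cell surface, went from 18.7 and 17.0 CPM to 92.9 and 122 CPM (2.59 ± 0.10). Apcdd1, a membrane inhibitor of Wnt, went from 23.8 and 26.2 CPM to 107 and 126 CPM (2.22 ± 0.078). Both had D7 libraries at the D6 level, 19.4 and 17.0 CPM for Flrt2 and 24.8 and 21.5 CPM for Apcdd1.

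Rising genes of this set, picked as examples, were the metalloproteases Adamts6 (1.92), Adam19 (1.86) and Mmp14 (1.55), the mesenchymal cadherin Cdh11 (1.75) and the matrix protein Emilin1 (1.34). Others were the AP-1 subunit Fosl2 (1.73), the Smad corepressor Skil (1.38), Twist1 (1.2), Foxq1 (1.38) and Etv1 (1.02). Skil was at 68.3 and 67 CPM in D6, 76.0 and 77.8 CPM in D7 and 169.7 and 181 CPM in D7G, so the held range still admitted a small called rise in D7 (0.19 ± 0.046, adjusted p = 0.00380). Members named in this paragraph that the naming rule did not pick were chosen after their values were seen.

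The 12 genes that fell at least 2-fold with Gdf11 while D7 held included Slc2a1, the basal glucose transporter, with 1081 and 1025 CPM in D6, 1053 and 1125 CPM in D7 and 449 and 502 CPM in D7G. Both treated libraries lay far below every untreated one, a change of -1.15 ± 0.046 (adjusted p = 6.78e-14), while D7 held (0.048 ± 0.045). Pknox2, a TALE homeodomain factor, went from 49.0 and 44.2 CPM to 16.9 and 17.1 CPM (-1.45 ± 0.069), with 51.9 and 53.1 CPM in D7, a small called rise (0.17 ± 0.061, adjusted p = 0.0323). Fndc3c1, an X-linked fibronectin type III gene, went from 379.9 and 351 CPM to 149 and 156 CPM (-1.26 ± 0.041), with 314 and 308 CPM in D7, so that it fell there as well (-0.23 ± 0.039, adjusted p = 0.000113). The guidance protein Sema3a fell by 1.04 on the log2 scale with Gdf11 and also without it (-0.20 ± 0.045, adjusted p = 0.00180), and the secreted Wnt modulator Sfrp2 (-1.02) was in this set too. The set of 50 counted 33 genes without D6 replicate 1, of which 23 were shared with it, and 33 without D7 replicate 1, with 24 shared. DESeq2 gave 32.

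One promoter of each of these 3 sets is printed, that of the member with the largest change that the RefSeq promoter table (GRCm38.p6) holds, predicted names left out. Each run covers 250 bases before to 50 bases after the start of the gene, 5′ to 3′ on the gene's strand. Capitals mark CAGAC or its reverse complement GTCTG, the Smad box bound by Smad3 and Smad4, and lower case is the rest.
Dlk1, chr12:109452573-109452872, plus strand: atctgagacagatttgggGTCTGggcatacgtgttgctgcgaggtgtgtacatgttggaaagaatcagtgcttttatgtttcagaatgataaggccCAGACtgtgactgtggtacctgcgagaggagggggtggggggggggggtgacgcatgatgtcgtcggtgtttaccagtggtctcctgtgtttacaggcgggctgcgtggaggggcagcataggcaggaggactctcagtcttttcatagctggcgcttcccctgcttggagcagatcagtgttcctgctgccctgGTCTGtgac
Jun, chr4:95052173-95052472, minus strand: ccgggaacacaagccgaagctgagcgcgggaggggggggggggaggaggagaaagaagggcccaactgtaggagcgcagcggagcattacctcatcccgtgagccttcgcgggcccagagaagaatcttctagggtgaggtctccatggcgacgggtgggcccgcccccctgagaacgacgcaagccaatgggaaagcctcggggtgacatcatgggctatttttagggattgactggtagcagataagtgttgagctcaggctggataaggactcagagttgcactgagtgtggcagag
Flrt2, chr12:95691976-95692275, plus strand: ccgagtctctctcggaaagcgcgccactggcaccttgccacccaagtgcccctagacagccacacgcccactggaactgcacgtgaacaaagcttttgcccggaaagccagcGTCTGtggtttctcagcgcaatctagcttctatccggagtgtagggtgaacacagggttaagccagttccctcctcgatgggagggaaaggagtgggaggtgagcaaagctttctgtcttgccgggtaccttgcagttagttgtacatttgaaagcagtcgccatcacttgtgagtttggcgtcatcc
The Dlk1 window holds 3 copies, the Flrt2 window 1 and the Jun window 0. Fst was not in the table. Windows of this length held the motif on either strand for 48.1% of the 12194 tested genes with an entry. Among the genes that moved in D7G and held between D6 and D7 it was in 21 of 34 windows (61.8%), and among those that moved in D7G and held between D7 and D7G in 3 of 9 (33.3%). A match is a description of letters and not a binding site, and no match says only that the letters are not in this window.

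The 3 genes that moved in opposite directions were Evx1os, Rtl1 and Gm45257. Evx1os, the transcript antisense to the tail bud homeobox gene Evx1 (chromosome 6, 52308389 to 52314832), was at 5.89 and 5.52 CPM in D6, 3.11 and 2.08 CPM in D7 and 12.5 and 15.8 CPM in D7G. It fell by 1.13 on the log2 scale in untreated cells (adjusted p = 3.15e-05) and rose by 1.31 in treated cells (adjusted p = 4.14e-08). Evx1 itself followed the same course, with 9.43 and 9.52 CPM in D6, 4.16 and 3.46 CPM in D7 and 13.1 and 15.7 CPM in D7G (0.60 ± 0.099 with Gdf11, -1.31 ± 0.12 without). The use of strand in the authors' counting is not given in the sources used here, so reads of Evx1 and Evx1os cannot be told apart where they overlap. Rtl1 and Gm45257 stood under 5 CPM in every group, so the direction of both rests on few reads. Rtl1 had 0.740 and 0.517 CPM in D6, 1.56 and 1.29 CPM in D7 and 0.157 and 0.342 CPM in D7G. Gm45257 had 0.483 and 0.258 CPM in D6, 0.150 and 0 CPM in D7 and 1.07 and 1.21 CPM in D7G. It lies inside the span of Cdh11 on the same strand, and Cdh11 rose with Gdf11 (1.75). Whether reads of Cdh11 were counted for Gm45257 was not tested.

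**Figure D2:**
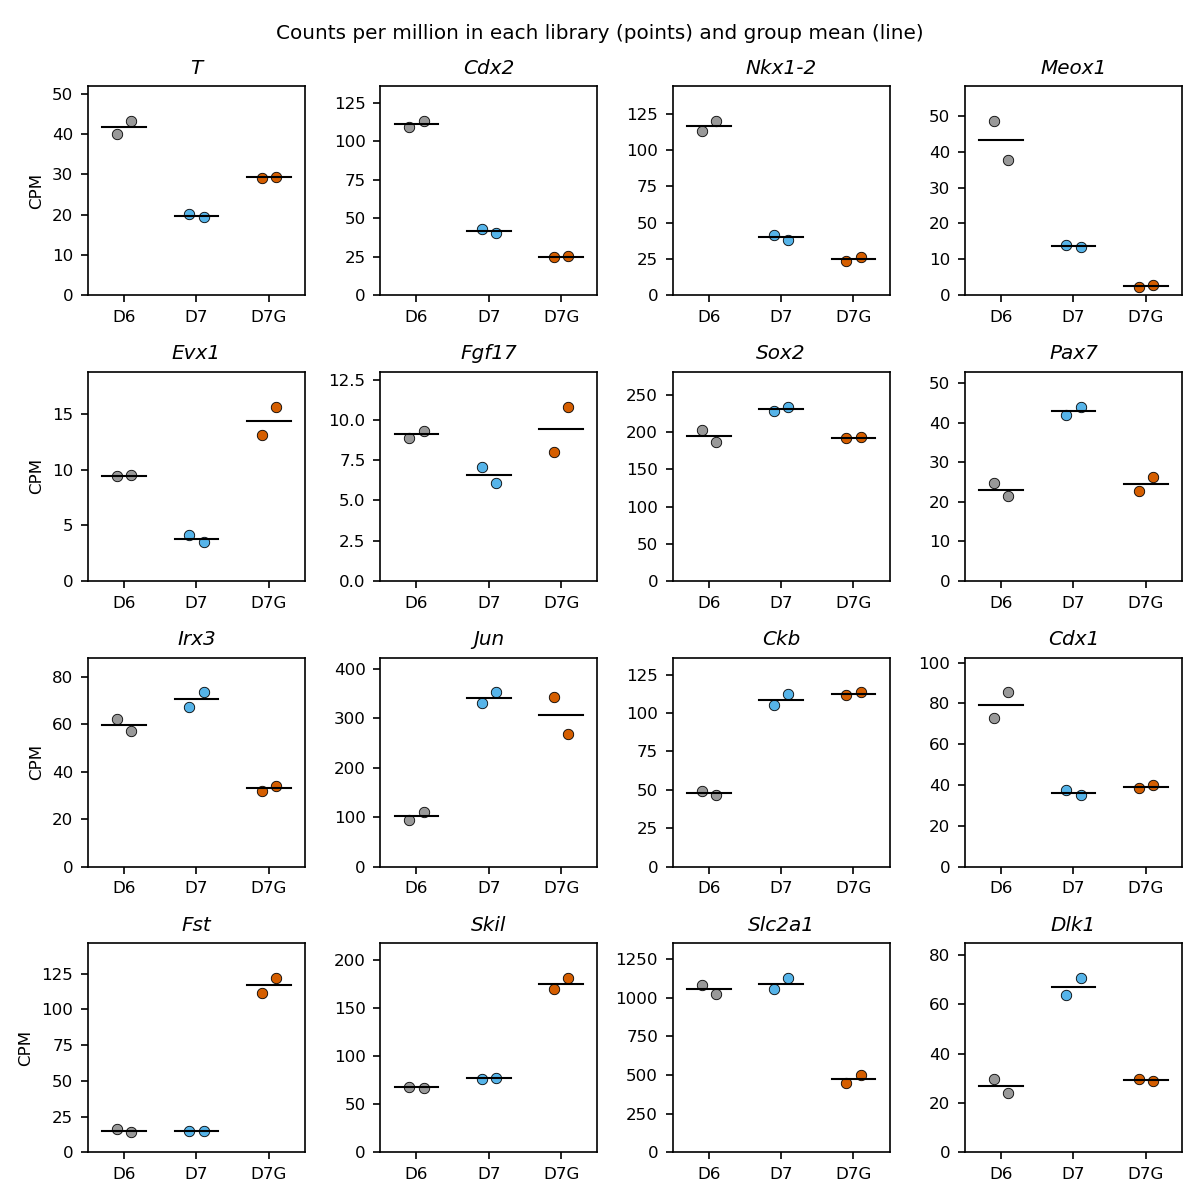
CPM of 16 genes in each library of D6, D7 and D7G, with a line at each group's mean (n = 2). Sox2, Pax7 and Dlk1 lie at the D6 level in D7G and above it in D7, Jun, Ckb and Cdx1 are close in D7 and D7G, and Fst, Skil and Slc2a1 lie far from D6 in D7G alone.

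Listed Smad target genes rose. All 16 tested genes of a list of Tgf-β, Activin and Nodal targets were called higher in D7G than in D6, against 30.6% of all tested genes. The median log2 fold change was 1.21 where all genes had 0.06. This list was chosen with earlier results of these data known, so the count describes its members alone. Not all 16 were called without D7G replicate 2. In D7 against D6, 7 of the 16 were higher and 1 lower (median 0.19). Pmepa1, a feedback inhibitor that sequesters Smad2 and Smad3, went from 7.92 and 7.04 CPM to 43.9 and 44.0 CPM (2.56 ± 0.076, adjusted p = 1.05e-15), with 9.10 and 9.45 CPM in D7. Ldlrad4, a related inhibitor, went from 0.547 and 0.517 CPM to 6.58 and 7.24 CPM (3.69 ± 0.21). The inhibitory Smad7 rose by 1.53 ± 0.073. Tgfbi, a secreted matrix protein, had already risen in D7 (1.43) and was further up in D7G (2.1).

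Genes of the ligand's own pathway changed unequally. Of 19 tested ligands, antagonists, receptors and Smads, 11 were called higher in D7G than in D6 and 4 lower, and 3 held. Among all tested genes these shares were 30.6%, 22.2% and 27%. Inhba and Inhbb encode the subunits of Activin. Inhba was near the floor at 0.0644 and 0.0968 CPM in D6 and 0.0898 and 0.151 CPM in D7, and was at 4.77 and 7.18 CPM in D7G (6.15 ± 0.39). Inhbb went from 0.193 and 0.291 CPM to 4.64 and 5.85 CPM (4.42 ± 0.26). Tgfbr2, the type II receptor for Tgf-β, rose by 1.87 ± 0.095. Gdf11 itself fell, from 58.8 and 53.7 CPM to 41.4 and 44.3 CPM (-0.39 ± 0.060), as did its type II receptor Acvr2b (-0.49 ± 0.051), its type I receptor Tgfbr1 (-0.25 ± 0.045) and its binding protein Wfikkn1 (-0.91 ± 0.071). The receptor Acvr2a and the transducers Smad2 and Smad4 held the D6 level (0.021, 0.094 and -0.033), although Smad2 was called higher, by 0.15, without D6 replicate 2. Mstn had no count in any of the 6 libraries, and Acvr1c had at most 3, so neither was tested.

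Hox genes, which lie in clusters on chromosomes 6 (Hoxa), 11 (Hoxb), 15 (Hoxc) and 2 (Hoxd), divided by paralogue group. All 12 genes of groups 10 to 13 were called higher in D7G than in D6 (median 1.73), and 1 of them, Hoxa10, was called in D7 against D6 (0.19 ± 0.074, adjusted p = 0.0462; median of the 12, 0.16). Hoxd11 was at 3.89 and 3.68 CPM in D6, 4.37 and 3.88 CPM in D7 and 17.5 and 17.0 CPM in D7G (2.19 ± 0.13, adjusted p = 1.97e-11). Hoxc11 went from 1.77 and 2.23 CPM to 9.31 and 11 CPM (2.34 ± 0.15) and Hoxd12 from 2.38 and 1.81 CPM to 11.3 and 10.7 CPM (2.39 ± 0.16). In each of the 12 genes both D7G libraries stood above both D6 libraries, where the 2 groups did not overlap in 74.4% of all tested genes. The smallest change was that of Hoxc10, from 47.1 and 43.6 CPM to 81.9 and 89.8 CPM (0.92 ± 0.059). Hoxc12, Hoxa13 and Hoxb13 were under 1 CPM in both D6 libraries, and their changes (2.65 ± 0.45, 2.58 ± 0.27 and 1.36 ± 0.26) carry the widest errors. Hoxd13 went from 4.18 and 4.36 CPM to 13.7 and 12 CPM and Hoxa11 from 4.38 and 4.33 CPM to 13.1 and 13.4 CPM. Hoxd10 (1.84) and Hoxc13 (1.38) rose as well.

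Anterior Hox genes went the other way. Of 12 tested genes of groups 1 to 4, 8 were called lower and 1 higher in D7G than in D6, with a median of -0.32 (-0.20 in D7 against D6, where 5 were lower and 2 higher). Hoxb1 went from 42.4 and 32.1 CPM in D6 to 20.1 and 22.1 CPM in D7G (-0.82 ± 0.097), with 29.4 and 33.1 CPM in D7. Hoxa2 and Hoxb2 fell and held between D7 and D7G (-0.33 and -0.31 against -0.39 and -0.30 in D7). Hoxd3 was the 1 that rose, by 0.56 ± 0.12 in D7G and 0.65 ± 0.11 in D7. Groups 5 to 9 were mixed, with 10 of 15 higher, 4 lower and a median of 0.25; the 10 became 6 without D6 replicate 2 and 5 without D7G replicate 2. Hoxa5 rose (0.86 ± 0.076) and Hoxd9 rose (0.83 ± 0.085), while Hoxb7, Hoxb8 and Hoxb9 fell (-0.61, -0.57 and -0.38). Hoxc8 held the D6 level with Gdf11 (0.13 ± 0.072; called higher, by 0.19, without D7G replicate 1) and fell without it (-0.34 ± 0.074).

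**Figure D3:**
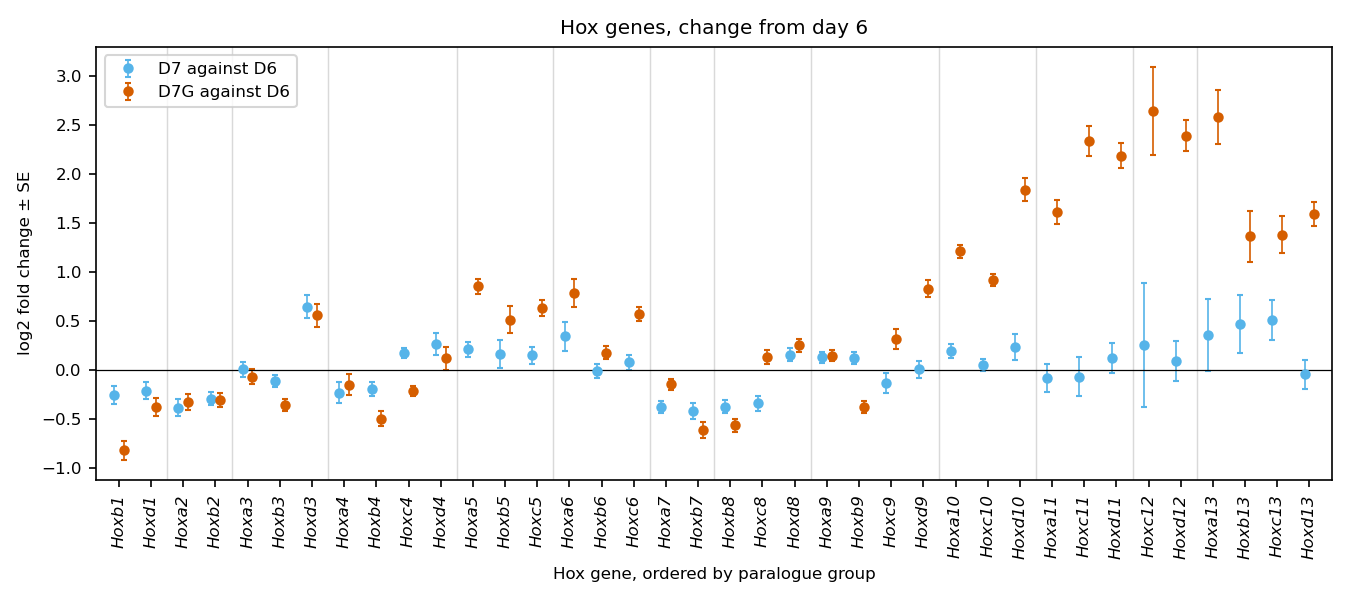
Log2 fold change ± SE of tested Hox genes in D7 against D6 (blue) and D7G against D6 (orange), ordered by paralogue group; both use the same 2 D6 libraries. The 12 genes of groups 10 to 13 lie between 0.92 and 2.65 in D7G, and below about 0.51 in D7.

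Most neuromesodermal progenitor genes were below their day 6 level in treated cells. Of 14 tested genes, 9 were called lower and 3 higher in D7G than in D6 (22.2% and 30.6% of all genes), with a median of -0.72. D7 against D6 had 11 lower and 1 higher, with a median of -0.76. Cdx2, which drives axis extension, was at 109 and 113 CPM in D6, 43.1 and 40.7 CPM in D7 and 24.7 and 25.3 CPM in D7G (-2.16 ± 0.048, adjusted p = 2.37e-17). Nkx1-2, a homeobox gene of the caudal epiblast, took the same path at 113 and 120.0, 41.6 and 38.1 and 23.4 and 26.2 CPM (-2.23 ± 0.056). For both, and for Cdx4 (-2.34 ± 0.057 with Gdf11, -0.83 ± 0.049 without) and Sp8 (-1.60 ± 0.083 and -0.63 ± 0.075), every D7G library was below every D7 library. Fgf8 fell in treated cells and held in D7: it had 12.1 and 11.8 CPM in D6, 12.3 and 10.4 CPM in D7 and 6.15 and 6.06 CPM in D7G (-0.97 ± 0.12).

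T, Sp5, Fgf17 and Wnt5a, also of this list, lay nearer to their day 6 level in treated than in untreated cells. T was at 40.1 and 43.3 CPM in D6, 20.3 and 19.3 CPM in D7 and 29.1 and 29.4 CPM in D7G, so that both treated libraries lay between the other groups. Its change from D6 was -0.51 ± 0.053 with Gdf11 and -1.08 ± 0.056 without, and D7G stood above D7 by 0.56 ± 0.058 (adjusted p = 1.61e-07). Sp5, a Wnt target in the tail bud, showed the same order (-0.41 and -0.68). Fgf17 held the D6 level in D7G (0.048 ± 0.13), though not without D6 replicate 1 or without D7G replicate 1, where the interval left the held range, and fell in D7 (-0.47 ± 0.13). Wnt5a, which guides tail bud outgrowth, rose with Gdf11, from 21.0 and 20.6 CPM to 23.5 and 27.1 CPM (0.29 ± 0.076), and fell without it, to 12 and 11.1 CPM (-0.85 ± 0.083). Cyp26a1, the retinoic acid degrading enzyme of the tail bud, rose in both (1.38 and 0.83).

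Presomitic and somite genes were mostly lower by day 7 with or without Gdf11. Of 17 tested, 9 were called lower and 3 higher in D7G than in D6 (median -0.62), against 12 lower and 2 higher in D7 (median -0.83). The shares of all tested genes were 22.2% lower and 30.6% higher in D7G, and 15.6% and 20.5% in D7. Meox1, a somite homeobox gene, had the largest fall of all named genes: 48.6 and 37.7 CPM in D6, 13.9 and 13.5 CPM in D7 and 2.19 and 2.92 CPM in D7G (-4.07 ± 0.13, adjusted p = 3.54e-15). Foxc2, Dmrt2 and the segmentation clock gene Hes7 also fell further with Gdf11 (-2.60, -2.20 and -3.48) than without (-0.74, -0.89 and -1.70). Hes7 was under 3 CPM in every library. Tbx6, which commits progenitors to paraxial mesoderm, was low already at 3.31 and 3.16 CPM in D6 and reached 1.22 and 0.964 CPM in D7G and 0.658 and 1.48 CPM in D7 (-1.56 ± 0.28 and -1.60 ± 0.27). Dll1, the Notch ligand of presomitic mesoderm and neural progenitors, held in both (0.082 and 0.11). Pcdh8, a cell adhesion gene of segmenting mesoderm, rose in D7G by 1.57 ± 0.093. Mesp1 and Ripply2 had 8 counts or fewer in each of the 6 libraries and were not tested, and Msgn1 was at 0.219 and 0.249 CPM in D7G.

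Neural progenitor genes rose over the day in untreated cells and mostly did not in treated ones. In D7 against D6, 7 of 12 tested spinal cord progenitor genes were called higher and none lower, against 20.5% and 15.6% of all tested genes. In D7G against D6, 3 were higher and 5 lower, against 30.6% and 22.2% of all tested genes. Fewer were lower without D6 replicate 1. Sox2 was at 204 and 187 CPM in D6, 229 and 235 CPM in D7 and 192 and 193 CPM in D7G. D6 and D7G overlapped, with a difference of -0.020 ± 0.044 (95% interval -0.11 to 0.072), and both D7 libraries were above them (0.25 ± 0.044, adjusted p = 0.000191). Pax7, a dorsal spinal cord factor, held as well at 24.7 and 21.4 and 22.8 and 26.2 CPM, against 41.9 and 44.1 CPM in D7 (0.90 ± 0.083). Irx3 and Sox1 fell below day 6 in treated cells. Irx3 was at 62.0 and 57.2 CPM in D6, 67.5 and 73.4 CPM in D7 and 31.9 and 34 CPM in D7G (-0.85 ± 0.063), and Sox1 changed by -0.51 ± 0.061 with Gdf11 and 0.17 ± 0.058 without. Pax3, a dorsal factor shared with somites and neural crest, rose in both (0.60 and 0.40). Pax6 rose less with Gdf11 (0.43 ± 0.099) than without (0.99 ± 0.095), with a difference of -0.56 ± 0.091 between D7G and D7 (adjusted p = 4.65e-05).

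Neuronal genes rose in both kinds of dishes. Of 14 tested, 13 were called higher in D7G than in D6 (median 1.71) and 11 in D7 (median 1.13). Nhlh1, a helix-loop-helix factor of newborn neurons, reached the same range with and without Gdf11: 1.80 and 1.81 CPM in D6, 8.08 and 9.88 CPM in D7 and 9.06 and 7.62 CPM in D7G (2.21 ± 0.18 and 2.31 ± 0.18). Dcx, which binds microtubules in young neurons, was higher with Gdf11, at 4.02 and 3.65, 11.1 and 10.00 and 27.3 and 26.5 CPM (2.81 ± 0.098). Robo3, a guidance receptor of commissural neurons, rose by 3.30 ± 0.14, and the neuronal tubulin Tubb3 by 1.63 ± 0.055, against 0.50 ± 0.057 in D7. Of 9 forebrain and midbrain genes 4 were called higher and 1 lower, against 30.6% and 22.2% of all tested genes. The 4 became 1 without D6 replicate 1 or without D7G replicate 1, and 2 without D7G replicate 2 or by DESeq2. Among 10 neural crest genes 7 were higher (median 1.38): Ngfr, the low-affinity neurotrophin receptor, went from 10.5 and 12.2 CPM to 44.6 and 46.7 CPM (2.01 ± 0.086) with 12.7 and 14.0 CPM in D7, and Sox10, a defining crest factor, was at 0.439 and 0.218 CPM in D7G.

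Fgf and Wnt target genes included none that rose in untreated cells and several that rose in treated cells. Of 10 Fgf-Erk targets, 5 were higher and 3 lower than D6 in D7G, against none higher and 6 lower in D7. Dusp6, an Erk phosphatase, was at 115 and 104 CPM in D6, 88.4 and 86.1 CPM in D7 and 126 and 137 CPM in D7G (0.27 ± 0.048 and, without Gdf11, -0.33 ± 0.049). Il17rd (Sef), an Fgf signal inhibitor, rose by 0.29 with Gdf11 and fell without (-0.77), and Spred1 held the D6 level (0.049). Of 12 Wnt targets, 8 were higher and 2 lower than D6 in D7G, against none higher and 6 lower in D7. Axin2, a feedback inhibitor of Wnt, went from 163 and 169 CPM to 200.5 and 238 CPM (0.40 ± 0.057) with 159 and 157 CPM in D7. Nkd1, another inhibitor, rose by 0.61 with Gdf11 and fell without (-0.38), and Tcf7 fell in both (-0.42 and -0.27).

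Among Notch pathway genes Hes1, the broad Notch effector, held the D6 level in D7G, with 76.3 and 63.4 CPM in D6, 46.0 and 48.6 CPM in D7 and 73.1 and 79.1 CPM in D7G (0.12 ± 0.071 and -0.56 ± 0.073). Without D6 replicate 1 it was called higher in D7G, by 0.26. Hes5, the neural effector, rose by 0.63 ± 0.092 with Gdf11 and by 1.54 ± 0.086 without. In all, 5 of the 9 were higher and 2 lower than D6, fewer lower without D6 replicate 1. Among all tested genes 30.6% were higher and 22.2% lower. Of 8 retinoic acid genes 4 were higher and 3 lower, to be read beside the same shares. Crabp2, a carrier of retinoic acid to its receptors, fell with Gdf11 and rose without it: it was at 354 and 317 CPM in D6, 449 and 467 CPM in D7 and 124 and 123 CPM in D7G (-1.44 ± 0.046, adjusted p = 2.55e-15). Aldh1a2, the synthesising enzyme, fell by 0.65 on the log2 scale, and Cyp26b1, a degrading enzyme, rose by 1.58 ± 0.24 from under 1 CPM. Of 8 Bmp response genes 6 were higher and 2, Id3 and Msx1, held the D6 level (0.071 and 0.12) while D7 rose (0.36 and 0.35). Msx2 went from 3.77 and 4.33 CPM to 18.5 and 20.4 CPM (2.26 ± 0.12).

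Lateral plate and hindlimb field genes rose, 10 of 12 tested in D7G (median 1.2) and 7 of 12 in D7 (median 0.60). The 10 became 8 by DESeq2, and fewer were called without D6 replicate 1 too. Tbx2, a T-box repressor of limb and other fields, was at 0.676 and 0.678 CPM in D6, 1.38 and 1.45 CPM in D7 and 16.5 and 18.6 CPM in D7G (4.69 ± 0.16). Prrx1, a limb mesenchyme factor, went from 31.8 and 31.8 CPM to 193 and 219.6 CPM (2.70 ± 0.069) and Bmp4 from 9.14 and 9.75 CPM to 53.1 and 64.9 CPM (2.64 ± 0.094). Pitx1, a hindlimb selector, rose by 1.30 ± 0.085. The hindlimb factor Tbx4 (1.22 and 1.21 CPM in D7G) and Isl1 (0.909 and 0.871 CPM) were called higher at very low levels, and Hand1 and Foxf1 were not called.

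Matrix and contractile genes rose, and the treated cells were well above the untreated ones of day 7. Of 12 matrix and cross-linking genes 11 were called higher in D7G than in D6 (median 2.28) and 11 in D7 (median 0.69). Tnc, the matrix glycoprotein tenascin C, was at 4.47 and 5.04 CPM in D6, 6.64 and 7.71 CPM in D7 and 95.6 and 130.4 CPM in D7G (4.57 ± 0.14, adjusted p = 1.21e-15). Thbs1 went from 33.5 and 34.2 CPM to 260.2 and 298 CPM (3.04 ± 0.086) with 44.6 and 49.1 CPM in D7, and the lysyl oxidase Loxl2 from 27.6 and 26.1 CPM to 152 and 169 CPM (2.58 ± 0.057) with 48.3 and 48.4 CPM. In these genes the D7 libraries were closer to D6 than to D7G. Lox rose by 3.31 ± 0.28, and by 4.07 without D6 replicate 1. All 10 actin and contractile genes were called higher (median 1.27; 5 higher and 1 lower in D7), among them Tagln (1.95 ± 0.079) and Acta2 (1.76 ± 0.072), which mark smooth muscle. Tpm1, which stabilises actin filaments, went from 239.9 and 240.1 CPM to 512 and 513 CPM while D7 held at 229 and 246 CPM.

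A list of embryo fibroblast markers, chosen because feeders had been in the stem cell culture, moved with these genes. All 10 were called higher in D7G than in D6 (median 2.14) and 7 in D7 (median 0.79). By DESeq2 9 were called higher in D7G, and fewer than 10 without D6 replicate 2 or without D7G replicate 1. The summed level of the list went from 252 and 249 CPM in D6 to 400.0 and 373 CPM in D7 and 1106 and 1247 CPM in D7G. Col1a1, a fibrillar collagen chain, took 7.31 and 9.04 CPM in D6, 25.9 and 28.7 CPM in D7 and 231 and 252 CPM in D7G (4.88 ± 0.097). The fibroblast markers Dcn (from 0.451 and 0.129 CPM in D6 to 0.658 and 0.684 CPM in D7G) and Thy1 (from 0.354 and 0.420 CPM to 1.13 and 1.09 CPM) rose at levels near or under 1 CPM, and Fap was lower in D7G than in D7 (-0.48 ± 0.13). Collagens are also made by the mesenchyme of the embryo, and the part of feeder cells in the matrix results was not tested. Of 8 mesenchymal genes 6 were higher and 2 lower, 1 lower without D6 replicate 1 (median 1.18): Twist2 (2.56 ± 0.14) and Vim (1.18 ± 0.054) rose, while the N-cadherin gene Cdh2 fell (-0.67 ± 0.047).

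Epithelial and pluripotency genes were higher in treated cells as well. Of 12 epithelial genes 11 were called higher in D7G than in D6 (median 0.83) and 8 in D7 (median 0.30). Cdh1, the E-cadherin gene, went from 116 and 132 CPM to 238 and 192 CPM (0.80 ± 0.071) with 139.8 and 139 CPM in D7, and the keratin Krt8 from 52.4 and 58.2 CPM to 133 and 109 CPM (1.13 ± 0.097). Of 12 pluripotency genes 11 were higher (median 0.55), with Nanog at 70.4 and 93.8 CPM in D6 and 118 and 104 CPM in D7G (0.44 ± 0.083). Pou5f1 (Oct4) was the 1 that held the D6 level, with 132 and 161 CPM in D6, 129.6 and 126 CPM in D7 and 172 and 149.7 CPM in D7G (0.13 ± 0.066). It was called higher in D7G without D6 replicate 2, by 0.28, and without D7G replicate 2, by 0.18. D6 replicate 2 and D7G replicate 1 were the higher library of their group for the sum of the pluripotency list (636 and 762 CPM in D6, 1038 and 914 CPM in D7G) and of the epithelial list (387 and 431 CPM, 869 and 729 CPM).

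Endoderm markers followed in part: 4 of 8 were called higher in D7G and none in D7, against 30.6% and 20.5% of all tested genes. Sox17 was at 17.5 and 21.6 CPM in D6 and 35.7 and 28.1 CPM in D7G (0.71 ± 0.10). The liver and yolk sac protein Afp was at 6.71 and 2.64 CPM in D7G, unequal between replicates. Of 6 node and notochord genes 5 were higher, against 30.6% of all tested genes, and 2 by DESeq2. Fewer were higher without D6 replicate 1 or without D7G replicate 1. Shh, a secreted signal of the notochord among other tissues, was among the 5 at 0.225 and 0.226 CPM in D6 and 0.627 and 0.497 CPM in D7G. Noto, of the same list, had at most 1 count in each of the 6 libraries and was not tested. The part of other cell types in these results was not tested.

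Cell cycle genes were a little below their day 6 level. All 10 mitosis genes and all 10 DNA replication genes were called lower in D7G than in D6, by small amounts: medians of -0.20 and -0.45, with 6 of the mitosis genes inside the held range. These 6 became 1 without D7G replicate 1, 3 without either D7 replicate, and 3 with no filter or with the D6, D7 and D7G libraries only. Mki67, the proliferation marker, went from 474 and 481 CPM to 425 and 425 CPM (-0.17 ± 0.036), and the helicase subunit Mcm5 from 482 and 491 CPM to 319 and 329.7 CPM (-0.58 ± 0.034), with 395 and 396 CPM in D7. Cdkn1a, the p53-driven inhibitor of the cell cycle, rose from 163 and 179.6 CPM to 334 and 350.5 CPM (1.00 ± 0.043). Of 12 tested p53 targets, 6 were called higher and 2 lower in D7G than in D6, and 5 held. Among all tested genes these shares were 30.6%, 22.2% and 27%. Bax and Phlda3 were among those that held (-0.083 and 0.011). All 10 ribosomal protein genes were lower, with 6 held (median -0.23). The 6 became 1 to 3 when any single library of the 3 groups was left out and 3 by DESeq2, and the values are uncertain because near-identical pseudogenes can take their reads.

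Glycolysis genes mostly rose in untreated cells and divided in treated ones. In D7 against D6, 7 of 10 were called higher, against 20.5% of all tested genes. In D7G, 4 were higher, 3 lower and 3 held, against 30.6%, 22.2% and 27% of all tested genes. Aldoa, the glycolytic aldolase, was at 623 and 654 CPM in D6, 866 and 952 CPM in D7 and 663 and 660.3 CPM in D7G. Both treated libraries lay close to day 6, a difference of 0.051 ± 0.040 (95% interval -0.032 to 0.13), against 0.51 ± 0.040 in D7. Ldha, lactate dehydrogenase, rose in untreated cells (0.32 ± 0.039) and fell in treated ones (-0.42 ± 0.039). Cholesterol synthesis genes rose more evenly, 7 of 10 higher in D7G and 8 of 10 in D7 (30.6% and 20.5% of all tested genes). Dhcr7, the last step of the pathway, held nearer to D6 with Gdf11 (0.15) than without (0.41).

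Lin28a and Lin28b, which block maturation of the let-7 miRNAs and decline as the embryo develops, fell in both kinds of dishes and further with Gdf11. Lin28a was at 525 and 513 CPM in D6, 312 and 291 CPM in D7 and 169.7 and 154 CPM in D7G (-1.68 ± 0.044 and -0.78 ± 0.042), and Lin28b changed by -1.14 and -0.31. Of the 8 genes of this list, 7 were lower in D7G. Hmga2, a let-7 target, was the exception and rose from 635 and 585 CPM to 680.4 and 748 CPM (0.23 ± 0.046), with 506 and 478 CPM in D7. Without D7G replicate 2 it was not called. Immediate early genes were higher at day 7 in both, 9 of 10 in D7G and 7 of 10 in D7, with Fos at 143 and 144 CPM in D6, 237 and 253 CPM in D7 and 239 and 197 CPM in D7G.

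**Figure D4:**
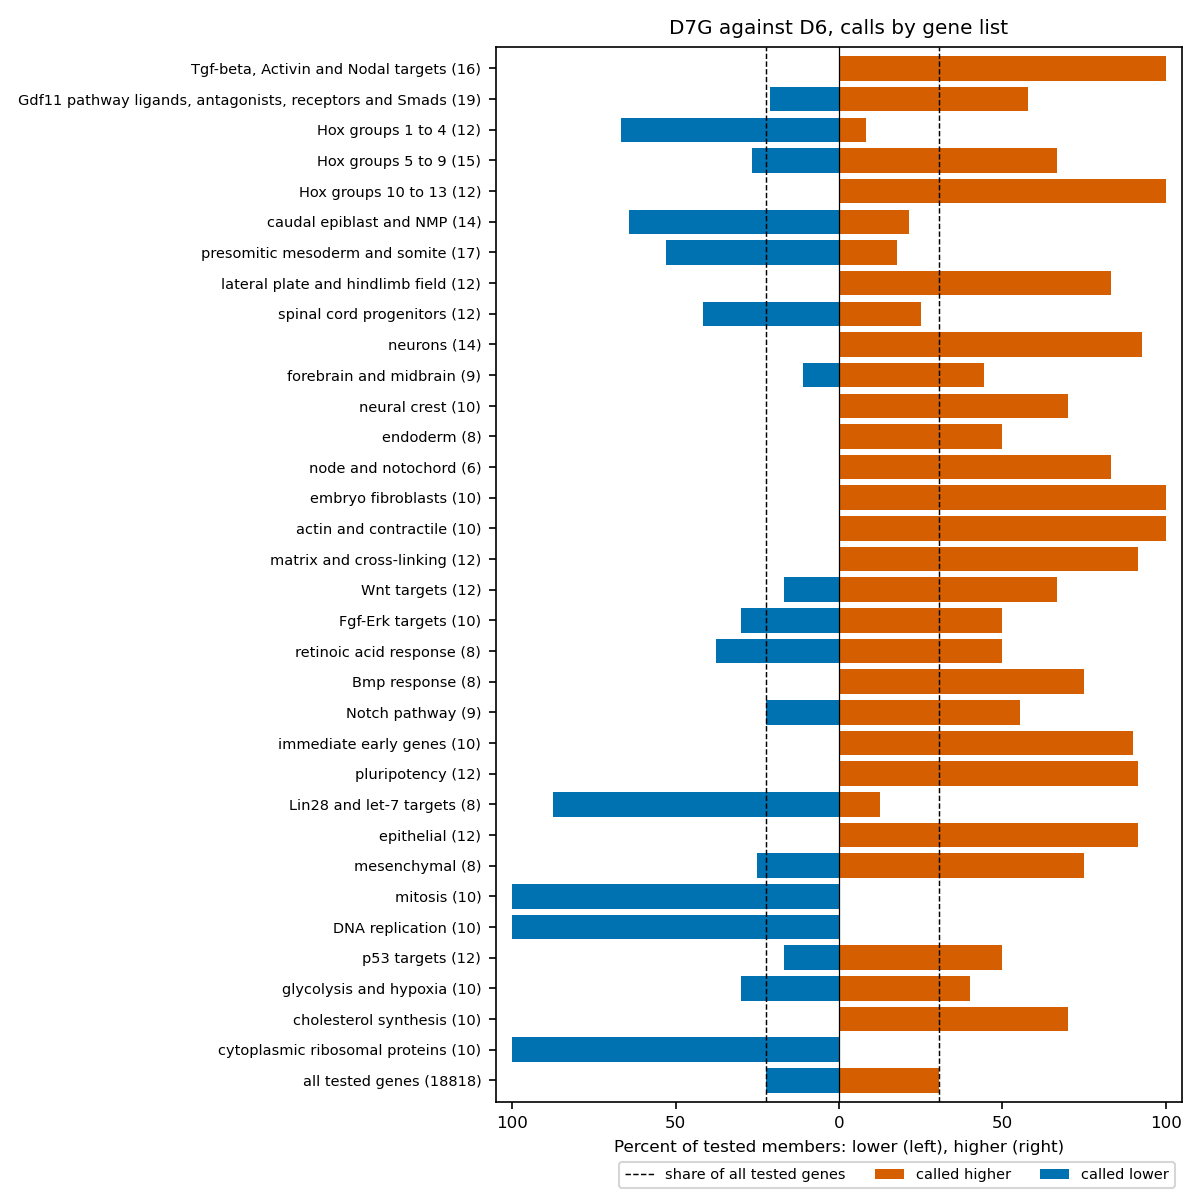
Percent of the tested members of each gene list (number tested in brackets) called higher (orange, right) or lower (blue, left) in D7G than in D6 by edgeR. Dashed lines mark the 30.6% and 22.2% of all tested genes; the Tgf-β target, Hox 10 to 13, fibroblast and contractile lists are wholly higher, and the mitosis, replication and ribosomal lists wholly lower.

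Among genes with a mean of at least 5 CPM in a group, several of the 10 largest rises from day 6 were of genes at under 2 CPM before. Lum, a matrix proteoglycan, was at 0.225 and 0.129 CPM in D6, 1.62 and 0.632 CPM in D7 and 13.2 and 17.2 CPM in D7G (6.39 ± 0.31). Mmp9, a secreted gelatinase, had 1.16 and 1.13 CPM in D6, 1.05 and 1.39 CPM in D7 and 30.4 and 47.7 CPM in D7G, so that D7 stayed in the range of D6 while D7G rose (5.09 ± 0.22, adjusted p = 2.42e-13). Dnm3os, the noncoding host of miR-199 and miR-214, rose by 5.15 ± 0.19, the axonal adhesion gene Cntn2 by 5.14 ± 0.16, the receptor Erbb4 by 5.19 ± 0.33 and the small GTPase gene Rhoj by 4.71 ± 0.30. Gria2, a glutamate receptor subunit, rose by 4.74 ± 0.21, and by 5.52 without D6 replicate 1.

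The 10 largest falls included genes of metabolism, guidance and neural progenitors. Arg1, the arginase, went from 32.8 and 28.1 CPM in D6 to 12.4 and 11.3 CPM in D7 and 3.17 and 3.54 CPM in D7G (-3.18 ± 0.11). Hoxaas3, an antisense transcript of the Hoxa cluster whose reads cannot be told apart from those of genes it overlaps, fell from 78.4 and 72.1 CPM to 8.40 and 8.95 CPM (-3.12 ± 0.067) with 38.7 and 39.0 CPM in D7. Epha5, an ephrin receptor, and Gfra3, a neurotrophic factor receptor, fell by 3.07 and 2.61 on the log2 scale. Hes3, a neural progenitor repressor, kept most of its level without Gdf11, with 12.3 and 11.5 CPM in D6, 8.08 and 9.21 CPM in D7 and 1.44 and 1.27 CPM in D7G (-3.12 ± 0.14 and -0.46 ± 0.099). Scn4b, a sodium channel subunit, did likewise (-2.43 and -0.34). In all 6 of these genes each D7G library was below each D7 library and each D7 library below each D6 library. The rule that picked them already required that D6 and D7G not overlap. The share of all tested genes with this order was not counted.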

How the data were processed

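Bulk RNA sequencing libraries of stem cell cultures were used as the authors deposited them, a table of raw counts per gene symbol. Per the submitters' processing notes the tools were STAR, HISAT2 2.1.0, featureCounts 1.6.3 and limma with genome build mm10; their roles, and the use of strand, are not given in the sources used here. Gene coordinates came from the deposited count table's own annotation.

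All 10 libraries (31078950 to 33418015 counts) were fitted with edgeR 4.0.16 in R 4.3.3: trimmed mean of M-values (TMM) factors, the edgeR filter on low counts (18818 of 52459 symbols), 1 coefficient per group and the quasi-likelihood test, with Benjamini-Hochberg adjustment over all tested genes. Residual degrees of freedom were 5, and the median SE of D7G against D6 was 0.0887. The fit was tested on simulated counts. Members and gene lists were chosen with earlier results of these data known. Named genes were the 10 largest rises and falls among called genes with a mean of at least 5 CPM in a group and groups that do not overlap, up to 5 at each end of each set, up to 4 called and 2 held members per list, Hox genes of groups 10 to 13 and 8 set genes; others are list members or were chosen after their values were seen. DESeq2 1.42.0, limma-voom, other scalings, filters, thresholds, the second deposited count table and leaving out each library were the alternatives. A few list members are counted in the lists and not reported here by name.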

Additional observations from a re-analysis of the deposited data

How the results depend on the processing

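With 2 libraries per group, p values measure the spread between these libraries alone; where leaving one out left a lone sample, it was assumed to vary like the other groups. Over all alternatives run, the calls of D7G against D6 ranged from 4371 to 6296 higher and from 3472 to 5073 lower, and those of at least 2-fold from 1136 to 1679 and from 170 to 288. Higher calls made up 57.9% of calls, and from 49.0% to 63.3% over the alternatives. None of the 203 named genes changed direction where it was called in the main fit or in the alternative. Changes of sign in genes called in neither were not counted. Of 3451 values, 3372 kept their call or the lack of one, 50 lost a call and 29 gained one.

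The sets defined by a held level depend on their thresholds, so their sizes are not stable counts. Genes that held the day 6 level with Gdf11 (2) became 3 by DESeq2, RLE factors, upper-quartile factors, no filter, a filter of 1 CPM in 2 libraries or the D6, D7 and D7G libraries only, and 0 by library totals. With a held range of 1.5-fold they were 9, of 1.2-fold 0, and with a move of at least 1.5-fold, an alternative chosen after seeing the data, 29. Genes that held between D7 and D7G (14) became 6 by DESeq2, 92 and 6 with those held ranges, and 141 with the smaller move. Genes that held between D6 and D7 (50) became 32, 250, 18 and 222 in that order. Genes in opposite directions (3) became 1 by DESeq2 and 15 with the smaller move. Leaving out each library gave 1 to 4, 7 to 16, 33 to 67 and 2 to 4 genes. The cause was not tested.

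Deviations of same-numbered libraries correlated at -0.17 between D6 and D7G, 0.14 between D6 and D7 and 0.15 between D7 and D7G over 11770 genes. With 2 libraries per group these values cannot tell whether replicate numbers pair the libraries. With the replicate number as a block, 5798 genes were higher and 4241 lower in D7G than in D6, 1564 and 227 at least 2-fold, and the sets held 2, 14, 52 and 3 genes; the block changed 1 named call, that of Ccng1. The crossed pairing gave 5834, 4247, 1567 and 231 calls.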

Other observations

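Dlk1 lies in an imprinted region of chromosome 12 with other genes that were counted, chosen here after their values were seen. Rtl1, which neighbours Dlk1 there, followed it upwards in untreated cells and fell below day 6 with Gdf11 (1.18 and -1.32), at under 2 CPM. Rian, a maternally expressed noncoding RNA of the region, was at 6.47 and 6.13 CPM in D6, 5.33 and 5.30 CPM in D7 and 4.01 and 3.17 CPM in D7G (-0.81 ± 0.13, adjusted p = 2.32e-05 by edgeR). Meg3, another, had 4.51 and 3.39 CPM in D6, 3.83 and 4.55 CPM in D7 and 3.23 and 3.58 CPM in D7G and was not called (adjusted p = 0.273). Between day 6 and treated day 7, Rtl1 and Rian thus fell while Dlk1 held.

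Imprinted genes elsewhere differed from each other as well. Peg3, a paternally expressed zinc finger gene, rose from 401 and 431 CPM in D6 to 1478 and 1689 CPM in D7G (1.93 ± 0.051), with 526 and 518 CPM in D7. Cdkn1c, the maternally expressed inhibitor of the cell cycle, went from 67.7 and 61.3 CPM to 160.1 and 172 CPM (1.36 ± 0.052), with 104 and 107 CPM in D7. H19 rose to 252 and 191 CPM from 112 and 110.0 CPM, with 106 and 97.1 CPM in D7, and Mest fell by 0.79 on the log2 scale.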
